A study of Homo sapiens with 6 samples.

Results

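A part of the BCL2 family, without the p53 target genes *BAX*, *BBC3* and *PMAIP1*, was examined in SW480 cells that overexpressed *MDM4*. Its 10 members were taken by symbol from the 19225 symbols of the expression table. They are *BCL2*, *BCL2L1*, *BCL2L2*, *MCL1*, *BAK1*, *BCL2L11*, *BID*, *BIK*, *BMF* and *BAD*, and all 10 were found. SW480 is a long-established line of colon cancer cells. All libraries carried mutant p53, and all came from cells transfected with plasmid, with 3 control libraries and 3 libraries of cells given plasmids encoding MDM4, numbered as replicates 1 to 3 in each group. The transfection was transient, so the share of cells that took up the plasmid may differ between libraries, and nothing states that the replicates were separate cultures, so the p-values measure only the spread between these libraries. The labels do not name the control plasmid, and they call the second group exercised. That group was taken as MDM4, since no further group besides control exists. Expression was deposited as FPKM, reads on a gene corrected for gene length and library depth, which allows levels to be compared between genes. The reads on genes, as recovered from the FPKM values, ran from 32922728 to 44563232 per library.

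Proteins of the BCL2 family decide at the outer mitochondrial membrane whether a cell enters apoptosis. The anti-apoptotic members BCL2, BCL-XL (*BCL2L1*), BCL-w (*BCL2L2*) and MCL1 hold the effectors BAK1 and BAX in check. The BH3-only members BID, BIK, BAD, BIM (*BCL2L11*) and BMF bind the anti-apoptotic proteins, and some of them also activate the effectors directly. Once active, the effectors make pores through which cytochrome c leaves the mitochondrion. Since *BAX*, *BBC3* (PUMA) and *PMAIP1* (NOXA) are textbook targets of p53, they were set apart here. Whether p53 acts on the other members in these cells was not tested. Many are also controlled after transcription, by cleavage (BID), phosphorylation (BAD) or rapid turnover (MCL1), which RNA levels do not measure.

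In GENCODE release 29 on GRCh38, *BCL2L1* lies on the minus strand of chromosome 20 from 31664452 to 31723989, *MCL1* on the minus strand of chromosome 1 from 150574551 to 150579738, *BCL2L2* on chromosome 14 (plus strand) from 23298790 to 23311759, and *BCL2* on the minus strand of chromosome 18 from 63123346 to 63320128. *BAK1* lies on the minus strand of chromosome 6 from 33572547 to 33580293. Among the BH3-only genes, *BID* lies on chromosome 22 from 17734138 to 17774770 (minus strand), and *BIK* on the same chromosome from 43110748 to 43129712 (plus strand). *BAD* lies on chromosome 11 from 64269830 to 64284704, *BCL2L11* on chromosome 2 from 111119378 to 111168447 and *BMF* on chromosome 15 from 40087890 to 40108892, of which only *BCL2L11* is on the plus strand. Exons of *BAD* overlap those of *GPR137* on the other strand, and exons of *BCL2L2* overlap those of *PPP1R3E* on the other strand. Antisense or noncoding genes also share exon sequence with *BMF* (*BMF-AS1*), *BCL2L1* (*ABALON*), *BAK1* (*GGNBP1*), *BCL2L11* (*MIR4435-2HG*) and, on the same strand, *MCL1* (*ADAMTSL4-AS1*), and these 5 neighbours were not analysed here. Whether the counting used strand is not stated, so reads in all these stretches, those of *BMF* and *BCL2L1* included, cannot be assigned for certain. *GPR137* was at a mean of 11.9 FPKM and *PPP1R3E* at 2.84 FPKM over the 6 libraries. The read-through gene *BCL2L2-PABPN1* was listed at 0 in every library.

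Of the 10 members, 7 have a promoter in the RefSeq table on GRCh38.p14, with 14 start sites in all. *BMF* and *BAD*, which were higher in replicate 3 of both groups, and *BCL2L1*, which was lower there, are given here as the 250 bases before 1 of their starts, read 5′ to 3′ on the gene's strand. Capitals mark matches on either strand to the GC box, spelled GGGCGG, to the box named after its letters CCAAT, and to the TATA box, for which the letters TATAAA were searched. The first is chr15:40108880-40109129, the second chr11:64284705-64284954 and the third chr20:31723964-31724213, all on the minus strand.
BMF: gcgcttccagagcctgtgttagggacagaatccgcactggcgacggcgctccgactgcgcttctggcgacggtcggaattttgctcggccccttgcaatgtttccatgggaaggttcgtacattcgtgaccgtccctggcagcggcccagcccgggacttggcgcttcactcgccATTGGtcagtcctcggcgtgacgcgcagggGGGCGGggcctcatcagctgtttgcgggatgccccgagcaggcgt
BAD: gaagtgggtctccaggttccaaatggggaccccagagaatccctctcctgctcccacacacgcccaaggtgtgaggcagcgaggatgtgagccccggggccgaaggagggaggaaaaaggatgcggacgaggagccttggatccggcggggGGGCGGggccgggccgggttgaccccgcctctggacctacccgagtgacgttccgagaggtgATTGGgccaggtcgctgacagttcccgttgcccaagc
BCL2L1: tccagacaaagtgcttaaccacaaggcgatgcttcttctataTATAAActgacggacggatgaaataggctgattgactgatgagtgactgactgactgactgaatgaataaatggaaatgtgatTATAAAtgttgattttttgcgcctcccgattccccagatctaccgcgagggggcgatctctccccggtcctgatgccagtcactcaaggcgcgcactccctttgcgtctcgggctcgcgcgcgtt
The stretches before *BMF* and *BAD* each held 1 GC box and 1 CCAAT box, and that before *BCL2L1* held neither but had 2 matches to the TATA box. The other start of *BCL2L1* and the other start of *BMF* held none of these letters. *BAK1*, whose replicate 3 libraries did not lie apart, had 2 GC boxes and 1 CCAAT box, *BID* had up to 4 GC boxes at 4 of its 5 starts, *BCL2L11* had 3 GC boxes and 1 CCAAT box, and *BCL2* had none. Over the same 250 bases of all 35116 promoters of the table, 42.6% had a GC box, 32% a CCAAT box and 10.7% a TATA box. The FOXO site (GTAAACA) was found in 2.98% of all promoters and, among the members, before *BCL2L11*, a textbook FOXO target. The E-box (CACGTG) was found in 6.34% of all promoters and, among the members, before *BID*. The STAT site TTCNNNGAA and the cAMP response element TGACGTCA, present in 6.57% and 1.65% of all promoters, were not found before any of the members' starts. A match is a description of the letters and not a site of binding. *MCL1*, *BCL2L2* and *BIK* have no entry there.

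The members covered a wide range of levels. *BCL2L1* was the most abundant, at 179 ± 26.3 FPKM in control (SD, n = 3), and ranked 291 among all 19225 symbols by mean level. *MCL1* followed at 60.7 ± 5.70 FPKM, and the lowest of its 6 libraries lay above the highest of *BID*. *BID* (29.0 ± 1.55 FPKM) and *BIK* (25.7 ± 3.05 FPKM), next in order, overlapped, as did *BIK* with *BAD* (18.5 ± 3.12 FPKM) and *BAD* with *BAK1* (15.7 ± 0.667 FPKM). *BAK1*, *BCL2L2* (13.2 ± 0.385 FPKM) and *BCL2L11* (9.42 ± 0.702 FPKM) did not overlap with the next below. At the bottom stood *BMF* (1.15 ± 1.49 FPKM) and *BCL2* (0.564 ± 0.115 FPKM), whose ranges overlapped. *BCL2*, the gene after which the family is named, was the least abundant member by its mean over all 6 libraries, although *BMF* lay below it in each of the 4 libraries of replicates 1 and 2. It rested on 68 to 108 reads per library, as recovered from the FPKM values, and *BMF* on 17 to 262, whereas the 8 others had at least 585 such reads in every library.

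**Figure D1:**
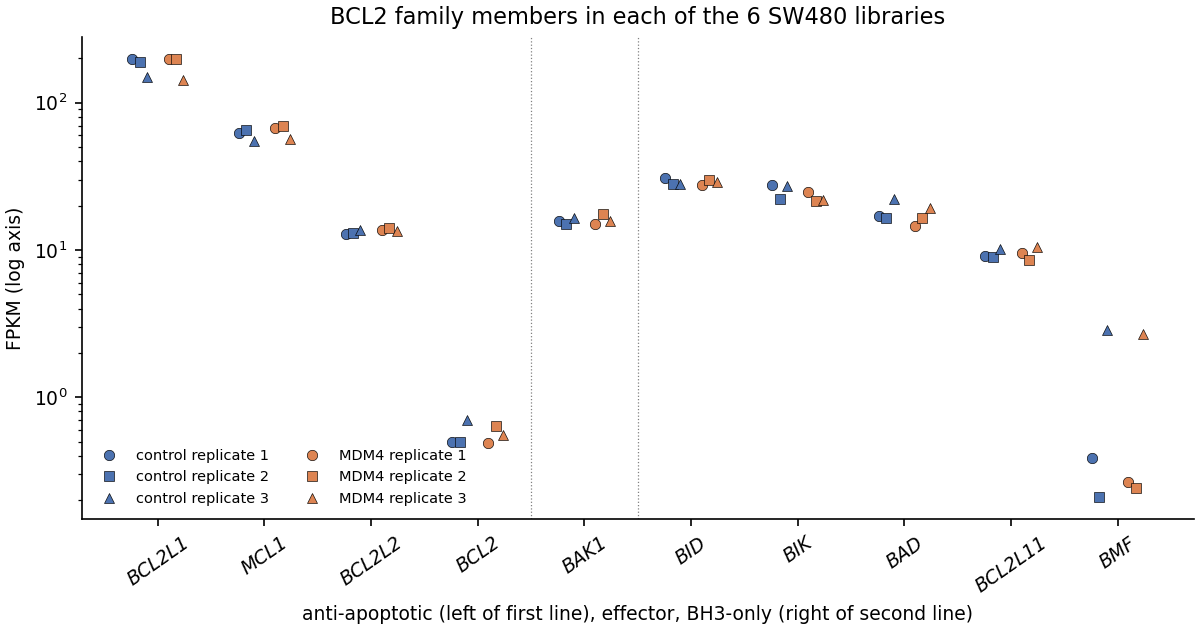
FPKM (log axis) of each of the 10 members in each library, with control in blue, MDM4 in orange and the replicate number given by the symbol. *BCL2L1* stands between 143 and 199 FPKM and *BCL2* between 0.485 and 0.697 FPKM, and the triangles of *BMF* (replicate 3) lie apart from its other 4 points.

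The check on the labels was *MDM4* itself. In controls it had 6.35, 7.09 and 5.13 FPKM, and in MDM4 libraries 188, 185 and 56.3 FPKM, each in the order of replicates 1 to 3. The groups did not overlap (p = 0.1 in a two-sided exact permutation test, which cannot go lower with 3 libraries a group). MDM4 replicate 3 had the lowest level of its group. Differences were tested in limma, on log2(FPKM + 0.1), over 12884 genes whose mean reached 0.5 FPKM, and all 10 members passed this filter. *BCL2* passed with a mean of 0.561 FPKM, and *BMF* only through replicate 3.

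No member was called between MDM4 and control. With a DEG defined as a gene with an adjusted p under 0.05 (Benjamini-Hochberg) and an absolute log2 fold change over 1, 0 of 10 members and 0% of the 12884 genes were DEGs in limma over all 6 libraries. None of the members had an unadjusted p under 0.05 there, against 222 of the 12884 genes, and each member's adjusted p was 0.9999. At so small a share of all genes, none among 10 members does not set them apart. This fit did not call *MDM4* either, at a log2 fold change of 4.33 (limma adjusted p = 0.161), so the lack of a call in it says little. With the replicate number as a block, 0.0155% of the genes were DEGs, 2 in all, with *MDM4* among them (limma adjusted p = 4.77e-05) and no member. Over replicates 1 and 2 alone, with 2 libraries per group, 0.29% of 12746 genes were DEGs, again with no member among the 9 that could be tested, since *BMF* then fell below the expression filter. Over all 20 fits tried, the lowest adjusted p of any member was 0.364 in limma, for *BIK* with the block. The members' log2 fold changes had a median of -0.01, and that of all tested genes was -0.01. In 4 members the fold change was above 0 and in 6 below, while 52.8% of all tested genes were below.

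**Figure D2:**
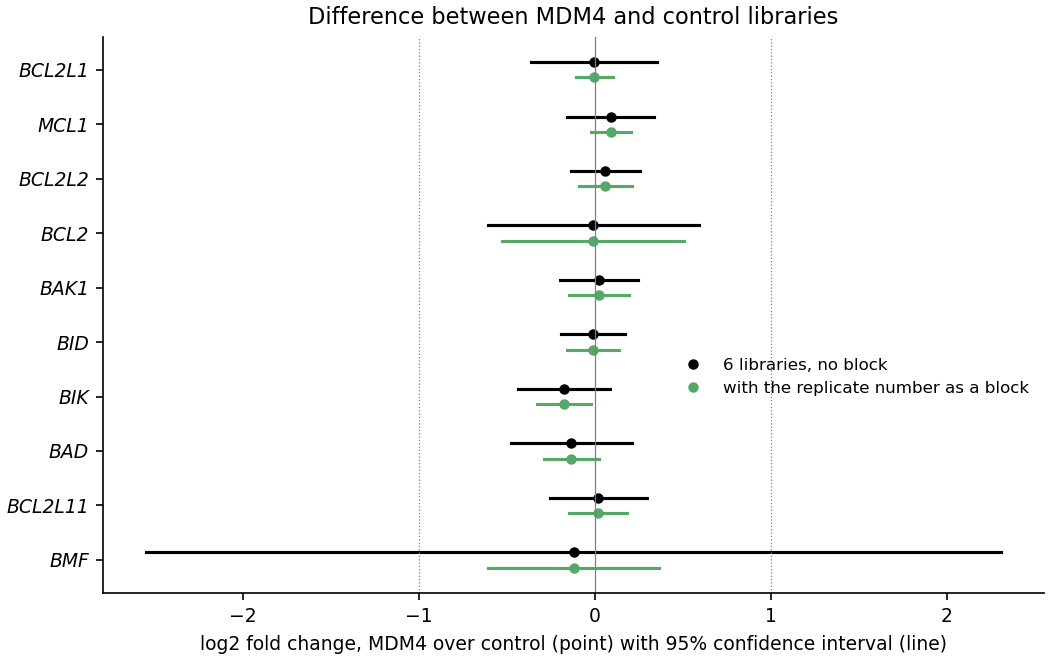
Log2 fold change of MDM4 over control (points) with its 95% confidence interval (lines) for each member, from limma on all 6 libraries (black) and with the replicate number as a block (green); dotted lines mark a log2 fold change of -1 and 1. Every interval but that of *BMF* without the block lies within these lines.

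Among the anti-apoptotic genes, *BCL2L1* had 199, 188 and 149 FPKM in the control libraries, in the order of replicates 1 to 3, and 197, 197 and 143 FPKM in the MDM4 libraries in the same order. Replicate 3 was low in both groups and the groups overlapped. The log2 fold change was -0.0025 (standard error 0.15), with a 95% confidence interval from -0.36 to 0.36. With the block the interval ran from -0.11 to 0.10.
*MCL1*, whose protein is short-lived and needs steady synthesis, was at 62.0, 65.7 and 54.5 FPKM in control and at 67.5, 70.0 and 56.8 FPKM in MDM4 libraries. Each MDM4 library lay above the control library of the same number, but the groups overlapped because of replicate 3. Its log2 fold change was 0.09 (95% confidence interval from -0.16 to 0.34), and over replicates 1 and 2 alone it was 0.11 (limma adjusted p = 0.727).
*BCL2L2* was at 12.9, 13.1 and 13.6 FPKM in control and at 13.8, 14.0 and 13.5 FPKM in MDM4 libraries. Its 6 values span a narrow range, and the groups overlapped through replicate 3, where the control library lay above the MDM4 library. The interval of its log2 fold change ran from -0.14 to 0.26.
*BCL2* was at 0.4995, 0.4955 and 0.697 FPKM in control and at 0.485, 0.636 and 0.550 FPKM in MDM4 libraries. No order by group or by number was seen. At this depth its log2 fold change of -0.0076 had an interval from -0.61 to 0.59, so a difference of moderate size was not detectable.

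The effector gene *BAK1* was at 15.8, 15.1 and 16.4 FPKM in control and at 15.0, 17.5 and 15.7 FPKM in MDM4 libraries. MDM4 replicate 2 was the highest and MDM4 replicate 1 the lowest of all 6. The log2 fold change was 0.03, with an interval from -0.20 to 0.25.

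Among the BH3-only genes, *BIK* had the largest log2 fold change of the members in size in limma over all 6 libraries. Other members exceeded it in some alternatives. With voom *BMF* was at -0.186 and *BIK* at -0.181. Over replicates 1 and 2 alone *BCL2* was at 0.136, *MCL1* at 0.106 and *BIK* at -0.104. *BIK* encodes a protein of the endoplasmic reticulum that binds anti-apoptotic partners. It was at 27.7, 22.2 and 27.2 FPKM in control and at 24.7, 21.5 and 21.8 FPKM in MDM4 libraries. Each MDM4 library lay below the control library of the same number, while control replicate 2 lay among the MDM4 values. Replicates 1 and 2 could not be told apart as pairs. Control replicate 2 lay below MDM4 replicate 1, so this order depends on the pairing by number. The log2 fold change was -0.17, with an interval from -0.44 to 0.09 in limma over all 6 libraries. With the replicate block the interval ran from -0.33 to -0.02 (unadjusted p = 0.0304, adjusted p = 0.364 from limma), which did not pass the test over all genes. The 5 genes whose profile over the 6 libraries was most like that of *BIK*, by the root mean square difference of centred log2 values of unit SD, were *SLC25A4* (0.184), *RNF185* (0.192), *FAM173A* (0.233), *DOLK* (0.235) and *CHCHD1* (0.237).
*BAD*, which phosphorylation in survival signalling keeps away from BCL-XL, was at 17.0, 16.4 and 22.1 FPKM in control and at 14.6, 16.5 and 19.2 FPKM in MDM4 libraries. Replicate 3 was the highest in each group. The log2 fold change with MDM4 was -0.13, with an interval from -0.48 to 0.21.
*BID*, which caspase-8 cleaves to carry death receptor signals to mitochondria, was at 30.8, 28.2 and 28.0 FPKM in control and at 27.5, 30.05 and 28.8 FPKM in MDM4 libraries. Its values were mixed between the groups, and the interval ran from -0.19 to 0.17.
*BCL2L11*, encoding BIM, was at 9.10, 8.94 and 10.2 FPKM in control and at 9.59, 8.57 and 10.5 FPKM in MDM4 libraries. Replicate 3 was again the highest of each group, and the interval of the fold change ran from -0.26 to 0.30.
*BMF*, whose protein is held at the cytoskeleton by dynein light chain in healthy cells, was at 0.384, 0.210 and 2.87 FPKM in control and at 0.266, 0.241 and 2.68 FPKM in MDM4 libraries. The 2 replicate 3 libraries stood far above the other 4, and within a replicate number the groups lay close. The interval of its log2 fold change of -0.12 was the widest of all members, from -2.55 to 2.31. It narrowed to -0.61 to 0.37 with the replicate block.

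None of the 10 members had groups that did not overlap in FPKM, against 6.85% of the 12884 genes. In single exact two-sided permutation tests the lowest p of a member was 0.2, for *BCL2L2* and *BIK*. Over replicates 1 and 2 alone, *MCL1* and *BCL2L2* were higher in both MDM4 libraries than in both control libraries, and 38.7% of all tested genes then had groups that did not overlap in either direction.

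The summed FPKM of the 4 anti-apoptotic members was 274, 267 and 218 in control and 279, 282 and 213 in MDM4 libraries. *BCL2L1* made up 66.8% to 72.5% of it. The sum of the 5 BH3-only members was 85.0, 76.0 and 90.4 FPKM in control and 76.8, 76.9 and 83.1 FPKM in MDM4 libraries. Replicate 3 had the lowest anti-apoptotic sum of each group. It also had the highest BH3-only sum of each group in FPKM, and likewise with TPM scaling and with quantile normalization. With median ratio scaling that sum was 86.0, 77.5 and 85.6 in control and 78.8, 78.5 and 78.9 in MDM4 libraries. Replicate 3 did not stand apart under that scaling. The ratio of the sums was 3.23, 3.52 and 2.41 in control and 3.63, 3.67 and 2.57 in MDM4 libraries, lowest in replicate 3 of both groups and higher with MDM4 in each of the 3 same-numbered pairs. In the mean the anti-apoptotic sum was 253 ± 30.8 FPKM in control and 258 ± 38.7 FPKM in MDM4 libraries (SD, n = 3 each), and the BH3-only sum 83.8 ± 7.28 and 78.9 ± 3.59 FPKM. These sums describe RNA and were not tested.

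**Figure D3:**
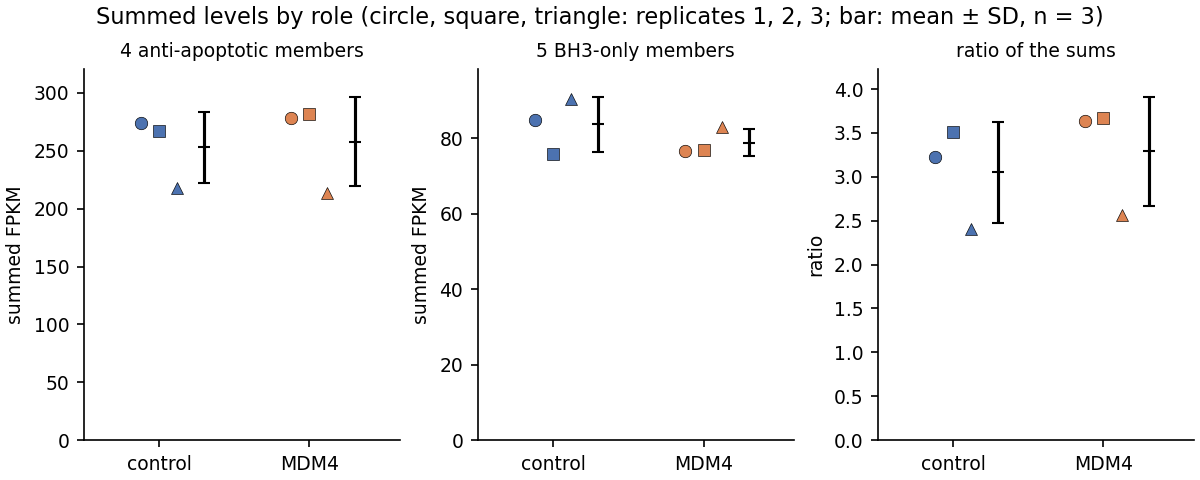
Summed FPKM of the 4 anti-apoptotic and the 5 BH3-only members, and the ratio of these sums, in each library (points) with the mean ± SD of each group (n = 3). In both groups the triangle of replicate 3 is the lowest point for the anti-apoptotic sum and for the ratio, at 2.41 and 2.57.

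The larger differences among the members lay between replicate numbers, in control and MDM4 libraries alike. A limma F test over the 3 replicate numbers, with the group in the model, was added after the data were seen. The adjusted p given for replicate numbers below are from this F test, which asks for any difference among the 3 numbers, and the difference of replicate 3 printed beside them is a description and was not itself tested. Of the 10 members 4 passed it (adjusted p under 0.05), *BMF*, *BCL2L1*, *MCL1* and *BAD*. Of all tested genes 34.2% passed, so the members' share was near the background. In 5 members both replicate 3 libraries lay outside the range of the other 4 libraries, as in 55.7% of all tested genes. *BMF*, *BAD* and *BCL2L11* were above (37.3% of all tested genes) and *BCL2L1* and *MCL1* below (18.4%). The median difference of replicate 3 from replicates 1 and 2 was 0.09 on the log2 scale over all tested genes and 0.03 over the members. With median ratio scaling the median over all genes was -0.01, so a difference of about 0.1 depends on how the libraries are scaled.

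*BMF* was higher in replicate 3 by 2.96 on the log2(FPKM + 0.1) scale (standard error 0.23). Since it passed the expression filter only through replicate 3, its test was repeated without a filter over 17189 genes, of which 19.6% passed, and there its limma adjusted p in the F test was 0.00246. The other 3 members kept their calls in that fit. Control replicate 3 was 9.66-fold above the mean of control replicates 1 and 2, and MDM4 replicate 3 was 10.6-fold above that of MDM4 replicates 1 and 2. These values rest on 39, 17 and 262 recovered reads in control and on 22, 19 and 201 in MDM4 libraries, by replicate number. Of the 12884 genes tested, and also of the 17189 without a filter, 0 had a larger difference than *BMF* in either direction. With a pseudocount of 1, which shrinks low genes, its difference was 1.57 and 7 genes had a larger one, 3 of them upward. Without MDM4 replicate 3, 5 genes had a larger difference, none of them upward. The next in order, chosen after their values were seen, were *SULT1A3* (2.39), *RHOU* (2.37), *NXPH3* (2.31) and *SESN3* (2.25). *BMF* made up 0.452%, 0.277% and 3.17% of the BH3-only sum in the controls and 0.347%, 0.314% and 3.23% in the MDM4 libraries, by replicate number, so the sum itself was moved more by *BAD*. The 5 genes with profiles most like that of *BMF*, chosen for it after its values were seen, were *IL22RA1* (root mean square difference 0.0339), *CHD3* (0.0387), *STK36* (0.0391), *GNAZ* (0.0484) and *FBXO10* (0.053). Profiles were scaled to unit SD, so the likeness is in shape and not in size. In the controls, *CHD3* was at 14.1, 13.0 and 18.6 FPKM and *GNAZ* at 3.05, 2.59 and 6.19 FPKM by replicate number, both smaller rises than that of *BMF*.

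*BCL2L1* passed the F test (limma adjusted p = 9.69e-04). Replicate 3 differed from replicates 1 and 2 by -0.42 (standard error 0.05), at 0.77 of the mean of the other 2 control libraries and at 0.723 of that of the other 2 MDM4 libraries. *MCL1* passed with an F test limma adjusted p of 0.0143, and its difference in replicate 3 was -0.25 (standard error 0.05). *BAD* passed with 0.0149 and a difference of 0.35 (standard error 0.07). Its call was lost with median ratio scaling, where the difference was 0.25 (F test limma adjusted p = 0.0621). For eBayes without trend, *MCL1* and *BAD* lost their calls at unchanged differences (F test limma adjusted p = 0.0858 and 0.0659). *BCL2L11* did not pass the F test (limma adjusted p = 0.134), and its difference in replicate 3 was 0.20 (standard error 0.08). The remaining members had differences in replicate 3 between -0.04 for *BID* and 0.20 for *BCL2*, and none passed the F test. The lowest of their F test limma adjusted p, 0.0865, was that of *BIK*, whose replicate 3 differed by 0.03 and whose replicate 2 differed from replicate 1 by -0.26. Without control replicate 3 the difference was -0.28 in *MCL1* and 0.30 in *BAD* (F test limma adjusted p = 0.164 and 0.266), and without MDM4 replicate 3 it was -0.23 and 0.40 (F test limma adjusted p = 0.327 and 0.0885). The sizes thus stayed close while the calls were lost, in fits where replicate 3 has 1 library left and the spread comes from replicates 1 and 2 alone. *MDM4* was also lower in MDM4 replicate 3, at 56.3 FPKM, and was at 5.13 FPKM in control replicate 3, where the members differed in the same directions. Replicate 3 also had more genes above 0, 16156 in control and 16085 in MDM4, against 15853 to 16048 in the other libraries. Its reads, 40086132 in control and 32922728 in MDM4, were not at 1 end of the range in both groups. The part of these measures in the members' differences was not tested, and in bulk RNA a change in some of the cells and a change in all of them cannot be told apart.

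**Figure D4:**
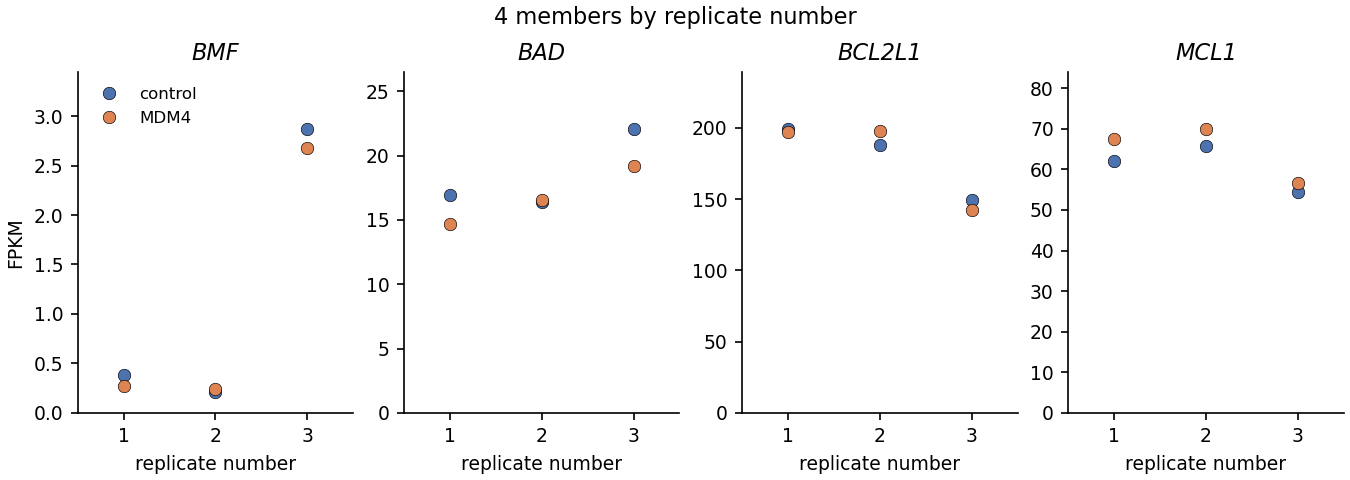
FPKM of *BMF*, *BAD*, *BCL2L1* and *MCL1* by replicate number, with control in blue and MDM4 in orange. In replicate 3 both groups are higher for *BMF* (2.87 and 2.68 FPKM) and *BAD* (22.1 and 19.2 FPKM) and lower for *BCL2L1* (149 and 143 FPKM) and *MCL1* (54.5 and 56.8 FPKM) than in the other 4 libraries.

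**Figure D5:**
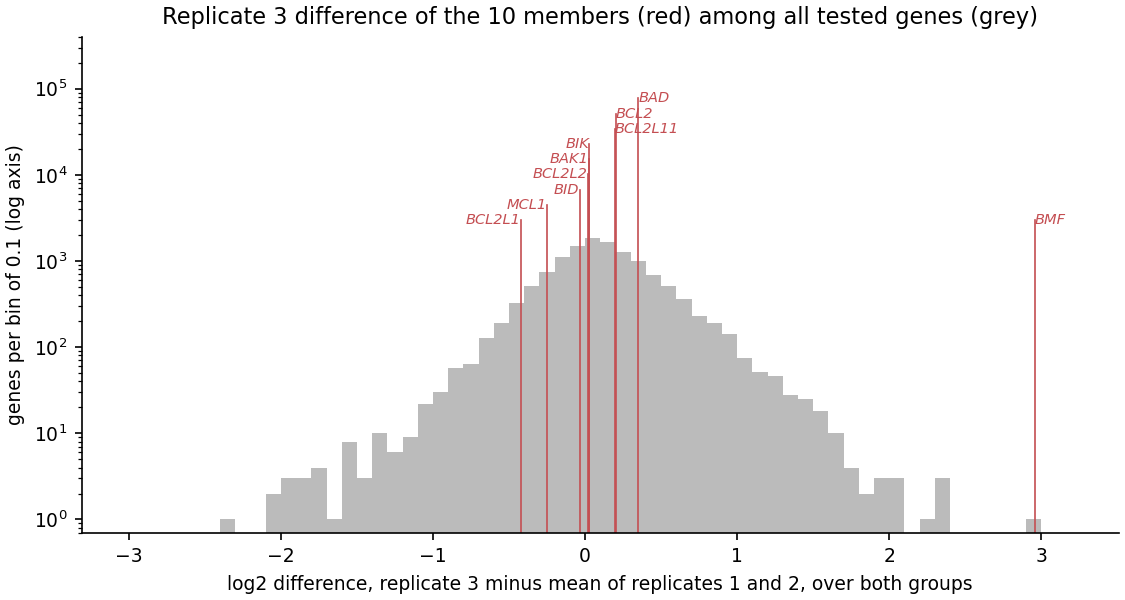
Histogram of the log2 difference of replicate 3 from the mean of replicates 1 and 2 for 12884 genes (grey, log axis), with the 10 members as red lines. *BMF*, at 2.96, lies beyond all other genes on the right, and the other 9 members lie between -0.42 and 0.35.

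Whether the effect of MDM4 on the members differed in replicate 3 was asked with an interaction term. In limma, 0.194% of the 12884 genes passed at an adjusted p under 0.05, and no member did (lowest adjusted p 0.9998). The term rests on 1 library per group for replicate 3, and its spread comes from replicates 1 and 2 alone, so the lack of a call says little about the members. Between same-numbered libraries, *BMF* differed by -0.40, 0.14 and -0.09 on the log2 scale in replicates 1 to 3, and *BCL2L1* by -0.02, 0.07 and -0.06. *BIK* had -0.16, -0.04 and -0.32, and *MCL1* had 0.12, 0.09 and 0.06. The sign was the same in all 3 pairs for these 2 of the 10 members, against 35.2% of all tested genes. For *BIK* this depends on how replicates 1 and 2 are paired.

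The 3 genes set apart as textbook p53 targets showed the same lack of a call between MDM4 and control. *BAX*, the second effector, was at 77.0, 68.3 and 76.9 FPKM in control and at 65.4, 70.0 and 72.8 FPKM in MDM4 libraries, with a log2 fold change of -0.09. *BBC3* was at 7.33, 5.54 and 8.76 FPKM in control and at 6.11, 5.01 and 8.10 FPKM in MDM4 libraries, with -0.17. It was the 1 of these 3 genes that passed the F test over replicate numbers (limma adjusted p = 0.00285), with a difference of 0.50 in replicate 3. *PMAIP1*, whose protein binds MCL1, was at 23.7, 27.9 and 23.6 FPKM in control and at 26.8, 28.6 and 24.7 FPKM in MDM4 libraries, with 0.09. The groups overlapped in each of the 3 genes, each with a limma adjusted p of 0.9999.

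Around the members, 4 lists of related genes were described by counts, to be read against the 34.2% of all tested genes that passed over replicate numbers and the 6.85% whose groups did not overlap. Of 13 other BCL2 family genes, 9 were tested and 0 called with MDM4, 4 above 0 and 5 below (median -0.01), and 3 passed the test over replicate numbers. *BNIP3*, a mitophagy receptor, had a log2 fold change of 0.19, and its level over all 6 libraries averaged 41.5 FPKM. *BAX* (71.7 FPKM) and *BNIP3L* (61.8 FPKM), a related mitophagy receptor, were the most abundant. *HRK*, *BCL2A1*, *BCL2L10* and *BCL2L14* were below the filter. *BCL2L15*, named because it was the 1 gene of this list whose groups did not overlap, was lower with MDM4 (log2 fold change -0.15).
Of 14 genes of the mitochondrial death machinery, which encode channels and receptors of the outer membrane, proteins released through it and the caspases they activate, 14 were tested and 0 called, with 1 above 0 and 13 below (median -0.05), while 3 passed over replicate numbers. *APAF1*, the scaffold of the apoptosome, was that 1, with a difference of 0.30 on the log2 scale (standard error 0.25). *CASP9*, which the apoptosome activates, had -0.14. *VDAC1* (255 FPKM) and *VDAC2* (93.4 FPKM), channels of the outer membrane, were the most abundant.
Of 10 genes of the death receptor arm that leads to *BID*, 10 were tested and 0 called, 5 on either side (median -0.01), and 6 passed over replicate numbers, 3 higher and 3 lower in replicate 3. The adaptor genes *TRADD* (-0.33, standard error 0.13) and *FADD* (-0.16) had the largest log2 fold changes, and the receptor genes *TNFRSF10B* (41.7 FPKM) and *TNFRSF1A* (36.9 FPKM) were the most abundant.
Of 14 genes for regulators of the members' proteins, 14 were tested and 0 called, 9 above 0 and 5 below (median 0.05), and 4 passed over replicate numbers. *DYNLL1*, a dynein light chain gene, had a log2 fold change of -0.15, *DYNLL2*, the other such gene of the list, 0.06 and *FBXW7*, a ubiquitin ligase subunit that targets MCL1, 0.14. The 14-3-3 genes *YWHAE* (543 FPKM) and *YWHAZ* (452 FPKM), whose proteins hold phosphorylated BAD, were the most abundant. *DYNLL1*, *YWHAE* and *MAPK8* were the 3 genes of this list whose groups did not overlap.

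The cells carried markers of colon epithelium. Of 12 such markers 8 passed the filter, *KRT8* was the most abundant at 1726 FPKM, and the list summed to between 4231 and 4913 FPKM per library. With MDM4, 0 of the 8 were called, 7 had a log2 fold change below 0 and 1 above (median -0.10), and in 3 the groups did not overlap (*EPCAM* and *CDX2* lower, *CDH1* higher), against 6.85% of all tested genes. *VIL1* (-0.54) and *ASCL2* (-0.51) had log2 fold changes larger in size than that of any member, and neither passed (limma adjusted p = 0.9999). *CEACAM5*, *CDX1* and *LGR5* were at or near 0 and *KRT20* was below the filter. The 6 leukocyte markers summed to between 5.72 and 6.88 FPKM, mostly from *CD68* (4.59 FPKM), with *PTPRC* at 0.00658 FPKM. The 5 fibroblast markers summed to between 1.61 and 3.83 FPKM, nearly all from *COL1A1* (2.55 FPKM), while *COL1A2*, *DCN* and *LUM* were at most at 0.0211 FPKM in any library. *COL1A1* also passed the F test over replicate numbers (limma adjusted p = 0.00211), with a difference of 0.92 in replicate 3. The 4 endothelial markers summed to at most 0.673 FPKM, mostly from *VWF*. The part of these markers in the members' differences was not tested.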

How the data were processed

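The authors deposited FPKM for 19225 symbols in 6 libraries (oligo(dT)-enriched mRNA, Illumina HiSeq2000). The aligner, annotation and genome build are not given in the sources used here. Column letters were read as control and MDM4, and the numbers as replicates. The values were read as whole multiples of 1 step per gene and library, within a tolerance not stated here. For each gene the smallest length that gave whole reads in every library was taken. Its recovered reads are thus the lowest that meet this reading, and the true reads could be a multiple of them. On that reading, reads were recovered for 17189 of 17189 genes above 0 (100%), for depth and for voom only. A gene with 1 read in 1 library meets it in any case, so this share is not a check of the reading. Recovered depth was 44563232, 35522673 and 40086132 reads in control and 36274304, 34586677 and 32922728 in MDM4 replicates 1 to 3. Among the members, *BCL2* and *BMF* had the fewest reads.

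Values entered limma 3.58.1 (R 4.3.3) as log2(FPKM + 0.1), with eBayes and its trend, and p-values were adjusted by Benjamini-Hochberg over the 12884 genes whose mean reached 0.5 FPKM. The fit was first tested on simulated data with known answers, where it recovered 100% of 200 changed genes. These data held no difference between replicate numbers, unlike the real libraries, and their spread came from the fit with the replicate number. The result therefore does not carry over to the fit without a block, which did not call *MDM4*. The alternatives changed the pseudocount, the filter, the scaling or the eBayes trend, added the replicate block, used voom, or left out replicate 3 or a single library. Single values were compared with exact permutation tests in scipy 1.17.1. Python 3.11.15, numpy 2.4.6, pandas 2.3.3 and matplotlib 3.10.9 made tables and plots.

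Deviations from the group mean, across genes, correlated at 0.783 between the replicate 3 libraries, which set replicate 3 apart in both groups. Same-numbered libraries of replicates 1 and 2 correlated at 0.458 and 0.451, and differently numbered ones at 0.462 and 0.439. Deviations within a group cancel out, so replicates 1 and 2 correlate in either pairing once replicate 3 stands apart. They could not be told apart, and their pairing in the replicate block rests on the numbers alone. Members and lists were chosen with earlier results of these data known. The text names all members, *MDM4*, *BAX*, *BBC3*, *PMAIP1* and, for each of the 4 lists of related genes, genes called, the 2 with the largest fold change and the 2 most abundant. Further genes, some from the marker lists, were named after their values were seen. Promoters come from RefSeq, matched by symbol. Protein sequences were not used here.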

Additional observations from a re-analysis of the deposited data

Results flagged for a closer look

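The difference between MDM4 and control in *MDM4* itself was smaller in replicate 3. In limma the log2 fold change there, less that over replicates 1 and 2, was -1.35 (standard error 0.15, adjusted p = 0.00166). Replicate 3 has 1 library per group, so the spread behind this value comes from replicates 1 and 2 alone, and replicate 3 is assumed to vary like them. The level in MDM4 libraries was 188, 185 and 56.3 FPKM in replicates 1 to 3. None of the BCL2 family members examined here passed the same test.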

How the results depend on the processing

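No member was a DEG under any of the 19 alternatives, and none had an adjusted p under 0.05. Of 188 fold changes recomputed under these alternatives, 162 kept their direction, and *BIK*, *MCL1* and *BCL2L2* never changed it. Their sizes still moved when 1 library was left out. *BIK* then ran from -0.28 to -0.12, *MCL1* from 0.014 to 0.18 and *BCL2L2* from 0.043 to 0.084. The replicate block gave 2 DEGs among all genes and no member, voom with the replicate block gave 15, replicates 1 and 2 alone gave 37, and leaving out 1 library gave 0 to 16, the most without control replicate 3. *BMF* could not be tested over replicates 1 and 2 alone, nor *BCL2* with a filter at a mean of 1 FPKM. Signs changed in 7 members. With TPM scaling *BCL2L1* was at 0.027, *BCL2* at 0.020 and *BID* at 0.018. With median ratio scaling *BCL2L1* was at 0.0062 and *BCL2* at 0.00066. Apart from the pseudocount, these 2 scalings shift the fold changes of all genes alike. A change of sign near 0 under them thus says little about a single member. With quantile normalization *BCL2L1* was at 0.029, *BCL2* at 0.013 and *BID* at 0.0079. Over replicates 1 and 2, *BCL2L1* was at 0.028 and *BCL2* at 0.14. When 1 library was left out, the log2 fold change ran from -0.13 to 0.15 in *BCL2L1*, from -0.093 to 0.13 in *BCL2*, from -0.036 to 0.073 in *BAK1*, from -0.042 to 0.033 in *BID*, from -0.23 to 0.0010 in *BAD* and from -0.052 to 0.096 in *BCL2L11*. In *BMF* it ran from -1.11 without MDM4 replicate 3 to 0.86 without control replicate 3, since 1 library decides its value without a block. The count of members whose groups did not overlap was 1 (*BCL2L2*) with TPM scaling, where 6.72% of all genes did so, and 2 (*MCL1* and *BCL2L2*) over replicates 1 and 2. Over replicate numbers, 4 members passed in most settings. The count was 2 (*BMF* and *BCL2L1*) for eBayes without trend, where 22.5% of all genes passed, and 2 to 5 when 1 library was left out, where 15.7% to 46.1% of all genes passed, with *BIK* the fifth without MDM4 replicate 2. The causes were not tested. *BCL2* and *BMF* had the fewest reads of the members. Without the block the interval of *BMF* ran from -2.55 to 2.31, and with it from -0.61 to 0.37 on the same reads. With 3 libraries per group, the intervals of the other 8 members leave room for differences of up to 0.48 on the log2 scale. With the replicate block this was 0.33.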
